A study of Mus musculus with 55 samples.

Results

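Subcutaneous BBN963 tumours taken from C57BL/6 (B6) mice fed entinostat were compared with BBN963 tumours taken from B6 mice at baseline, across all genes of their RNA. The tumours were chosen by their labels: 5 entinostat libraries (tumours 411, 413, 418, 421 and 423) and 4 baseline libraries (tumours 415, 416, 419 and 426), that is 9 of the 30 RNA libraries with values and of the 55 samples of all kinds in the series. BBN963 is a mouse bladder cancer cell line, so all tumours come from 1 line placed under the skin and not in the bladder. Mice in the entinostat group entered the groups when tumours reached 200 mm3, received entinostat in chow at 12 mg/kg, and had their tumours collected at 100 mm3. The volume of the baseline tumours at collection is not stated in the sources used here, so treatment, tumour size and time in the host cannot be told apart in this comparison. A sixth entinostat tumour with an RNA label, tumour 403, was not analysed here. Beside these groups stand 6 vehicle tumours from B6 mice and, for the test of the host, 5 entinostat and 5 baseline tumours of the same line from NSG mice, a strain without T cells, B cells or NK cells. No source used here states the dose or tumour volumes for the NSG mice, or the age or sex of any mouse.

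Entinostat inhibits class I histone deacetylases (HDACs), enzymes that remove acetyl groups from histones and so favour closed chromatin; they work inside corepressor complexes such as CoREST, Sin3, NuRD and NCoR. BBN is a bladder carcinogen of rodents, and basal bladder carcinomas express the keratins, desmosomes and hemidesmosomes of stratified epithelium under the transcription factor p63 (Trp63). A tumour under the skin also holds host cells: fibroblasts that lay down collagen, vessels, macrophages, lymphocytes and, at its edge, fat, nerve and muscle. In bulk RNA, fewer cells of a type and less RNA per cell cannot be told apart.

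Values are the authors' normalised read counts, and they compare 1 gene between tumours, not different genes, because they are not divided by gene length. Values are listed in the order of the tumour numbers above, and where 2 runs of values stand side by side ("read ... against ...") the baseline tumours come first. A log2 fold change is the mean of log2(value + 1) in the entinostat tumours minus that in the baseline tumours, ± its SE, from a limma fit of all 15 B6 libraries. The p-values are Benjamini-Hochberg adjusted over the 17053 genes tested, and "rose", "fell" and "passed" mean an adjusted p under 0.05. In units of 1e6, the summed signal per library was 22.4 to 25.3 at baseline and 27.9 to 33.4 under entinostat. The reads behind it, estimated roughly from the value of 1 read among low values, were 25.1 to 33.1 and 13.0 to 26.5 in the same units. Entinostat tumour 418 had the fewest (13.0), and the other entinostat tumours had 20.6 to 26.5. Gene positions are in GRCm38, from RefSeq. Median SDs of log2 values per gene were 0.387 among entinostat tumours and 0.382 among baseline tumours.

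The labelled tumour type was visible in the baseline libraries. Krt5, a basal keratin (chr15:101707069-101712905), read 156166, 54405, 166089 and 146784 at baseline against 80.2, 223, 422.2, 92.4 and 34.9 under entinostat. Trp63 (chr16:25683763-25892088) read 10128, 4810.4, 8664 and 8020.4 against 31.7, 75.7, 74.2, 8.92 and 23.4. Both markers were thus present at baseline and low in the entinostat tumours. Of the listed uroplakin genes, which include those of the plaques of differentiated urothelium, Upk1a reached at most 11.4 and Upk3b at most 6.41 in any of the 9 tumours, Upk2 and Upk3bl fell, and Upk1b and Upk3a did not pass.

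Of the 17053 genes tested, 9284 (54.4%) passed, 4965 higher (29.1%) and 4319 lower (25.3%) in the entinostat tumours. The share of genes whose entinostat and baseline values did not overlap was 49.6%. More genes were lower than higher under the other scalings, with 4554 higher and 5073 lower under quantile scaling and 4469 and 4785 under cyclic loess scaling. The shares are the background for every count below. Counts of list members are over those that passed the filter on low values (10 or more in 4 of the B6 libraries), which a gene near 0 in one group can pass through the other group alone. The largest falls exceeded the largest rises: 237 genes were at least 64-fold lower and 51 at least 64-fold higher, although at 8-fold the order was the opposite, with 855 lower and 1656 higher. The median log2 fold change over all genes was 0.01. The first principal component of the 9 libraries held 73.4% of the variance and put the baseline tumours between −209.9 and −107.4 and the entinostat tumours between 115.6 and 127.4. Skeletal muscle RNA differed between libraries: the summed signal of 20 muscle genes was 667945 in entinostat tumour 413, 23930 in baseline tumour 415, 22664 in entinostat tumour 423 and 353 to 3884 in the others. Without these 3 tumours 6737 genes passed, 3506 higher and 3231 lower. That fit holds fewer tumours of both groups. A call lost in it, here and below, can come from fewer tumours or from muscle content, which cannot be told apart.

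The sum of 90 genes from 4 epithelial lists took 2.10% to 6.56% of all signal in the baseline tumours and 0.0363% to 0.0730% in the entinostat tumours. Collagens and other matrix genes took 0.133% to 1.45% at baseline and 6.10% to 9.32% under entinostat. The macrophage lists took 0.743% to 1.30% and 5.63% to 11.9%. In none of the 3 sets did the tumours of the groups overlap. Among baseline tumours, tumour 426 had the lowest matrix and macrophage shares. The 5 genes with the most signal at baseline were Eef1a1, a translation elongation factor, Krt14, Krt6a, the predicted gene Gm28661 and Krt5. Under entinostat they were Lyz2 (lysozyme of myeloid cells, 1.95% of all signal), Apoe (1.62%), Col3a1 (1.49%), Spp1 (osteopontin, 1.26%) and Psap (a lysosomal saposin precursor, 1.24%).

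**Figure D1:**
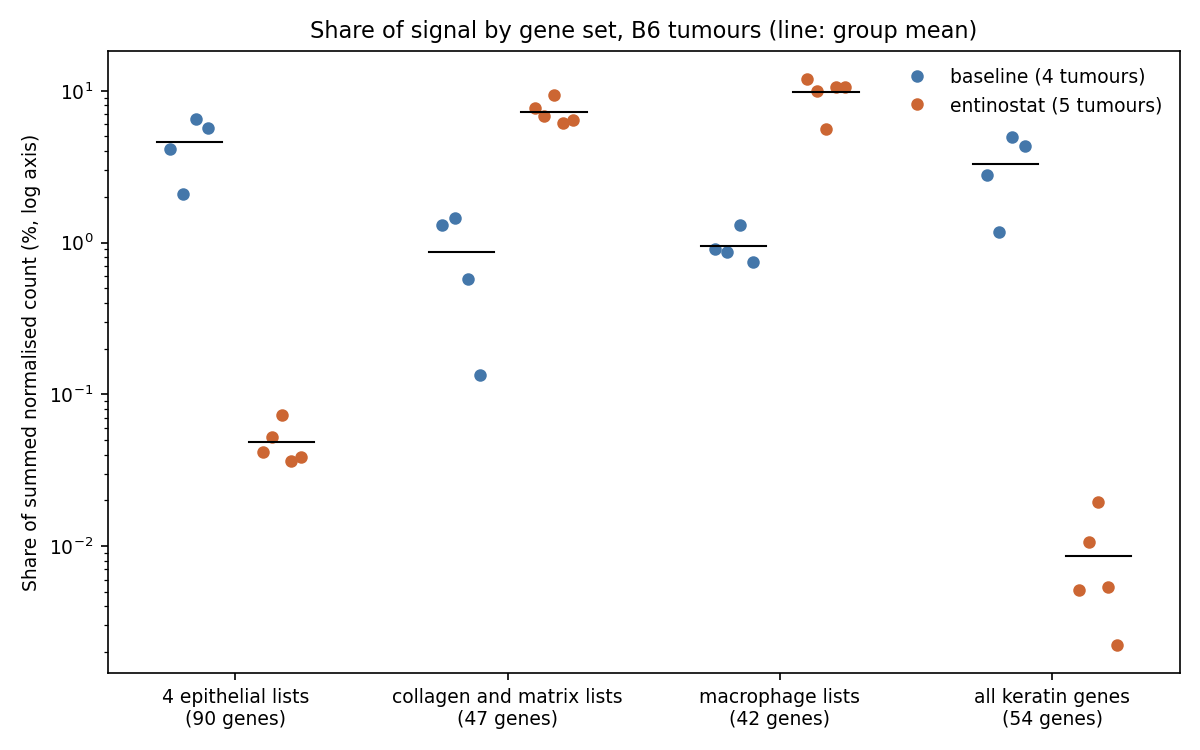
Share of the summed normalised read count per tumour (log axis, percent) for 4 gene sets, with 1 point per tumour, 4 baseline and 5 entinostat tumours, and a line at each group's mean. The 4 epithelial lists together lie between 2.10% and 6.56% in the baseline tumours and between 0.0363% and 0.0730% in the entinostat tumours, while the matrix and macrophage sets lie the other way round.

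Epithelial genes fell, and the basal and cornified lists had the lowest medians of all lists. In the list of basal and hemidesmosome genes, which anchor the basal cell layer to its basement membrane, 21 of 22 members fell and none rose; only Dst, a linker of intermediate filaments, did not pass (log2 fold change −0.705 ± 0.38, adjusted p = 0.124), although it did without baseline tumour 416 (adjusted p = 0.0207). Sfn, which encodes 14-3-3 sigma of stratified epithelium (chr4:133600556-133602168), read 26985, 19282, 32252 and 25155 at baseline and 189, 163, 204, 321 and 138 under entinostat (log2 fold change −7.02 ± 0.37, adjusted p = 8.54e-09). Pkp1, a plakophilin of desmosomes, read 22404, 12629.6, 40743 and 29364 against 20.8, 25.1, 117, 9.70 and 5.99 (log2 fold change −10.10 ± 0.65, adjusted p = 5.19e-08). Neither gene overlapped between groups. The hemidesmosome integrin subunits differed in size of change, with Itgb4 (−5.11), Itga3 (−4.15) and Itga6 (−1.38), and among the laminin chains of the epithelial basement membrane Lamb3 (−5.69) and Lama3 (−5.43) fell (log2 fold changes in parentheses here and below). Collagen XVII, Col17a1, read 32210.3, 20697, 35816 and 21239.7 at baseline against 17.4, 59.0, 158, 13.6 and 20.3.

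Genes of the cornified envelope, the cross-linked protein shell of squamous cells, were lower in the same way: 22 of 22 tested members fell, with a median of −8.31. Members near 0 under entinostat, such as Ivl, Rptn and Flg, passed the filter through control tumours alone, so their fall is no support for the list. With no filter on low values 22 of 23 fell. Ivl, which encodes involucrin (chr3:92570899-92573790), read 1079, 1810, 1209.8 and 1734 at baseline and 1.16, 2.40, 2.13, 0 and 2.41 under entinostat (log2 fold change −9.22 ± 0.41, adjusted p = 1.88e-09). The neighbouring small proline-rich genes Sprr2a1, Sprr2a2 and Sprr2a3 are near-identical copies whose reads may be split between them. Sprr2a2 read 37066, 13127, 36694 and 104483 against 46.4, 48.0, 6.50, 128 and 6.18. All tested members were without overlap between groups, although they varied widely between baseline tumours. Rptn, repetin, read 574, 44.7, 4398 and 2864 against 0, 0, 0, 0 and 1.20, with tumour 416 the lowest at baseline. Flg, filaggrin, read 22.3, 0.669, 122 and 174 at baseline and was at 0 in all 5 entinostat tumours; its call ended without baseline tumour 419 (adjusted p = 0.0799), without baseline tumour 426 (0.0858) and without the muscle-rich tumours (0.106).

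Luminal urothelial genes also fell, 14 of 18 with a median of −4.07, although the tumours expressed few of them highly. Klf5, a transcription factor of proliferating epithelium, read 1299.7, 724, 1929.7 and 1862 against 9.30, 4.80, 8.52, 0 and 6.02 (−8.01 ± 0.60, adjusted p = 1.56e-07). Grhl3, a Grainyhead-like factor of barrier formation, read 864, 500.3, 2157 and 2042 against 2.32, 12.0, 2.13, 1.62 and 1.20 (−8.28 ± 0.65, adjusted p = 2.18e-07). Ppl, periplakin, read 3844, 2329.7, 10096 and 13375 against 75.5, 56.3, 143, 95.7 and 19.2 (−6.49 ± 0.64, adjusted p = 1.78e-06). The luminal factors Foxa1 (−6.83), Gata3 (−3.34) and Elf3 (−6.93) fell as well. Pparg, a nuclear receptor of luminal urothelium and of fat cells, was the 1 member that rose, from 67.5, 48.7, 124 and 72.7 to 448, 236, 342, 310.7 and 252 (2.05 ± 0.61, adjusted p = 0.0105). Krt8 passed with an adjusted p of 0.0418 and lost the call when baseline tumour 416, its highest library, was left out (adjusted p = 0.139), and likewise without baseline tumour 419 (0.108) or without entinostat tumours 411 (0.0576), 413 (0.0697) or 423 (0.106).

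All 25 epithelial adhesion and polarity genes fell, with a median of −4.21. Cdh1, E-cadherin of adherens junctions (chr8:106603350-106670247), read 8722, 13633, 11819 and 18139.9 against 792, 858, 703, 717 and 856 (−4.01 ± 0.19, adjusted p = 2.31e-09). The 5 entinostat tumours were thus close to each other for Cdh1, and none was at 0. Esrp2, a splicing regulator that keeps epithelial isoforms, read 1693, 1822, 2782 and 3119.8 against 56.2, 41.3, 43.7, 64.8 and 38.02 (−5.54 ± 0.26, adjusted p = 2.31e-09). St14, the membrane protease matriptase, read 4569, 6073, 5982 and 7213 against 209, 252, 385, 193 and 212 (−4.60 ± 0.26, adjusted p = 2.02e-08), and its inhibitors Spint1 (−3.06) and Spint2 (−3.40) fell too. Claudins, the strand proteins of tight junctions, ranged from −2.57 for Cldn1 to −6.73 for Cldn4. Grhl2, a factor that maintains epithelial junction genes, read 1367, 1053, 1395 and 1966 against 14.5, 8.87, 38.2, 8.06 and 3.58.

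Growth factor systems of the epithelium changed unevenly. In the EGF receptor family 7 of 13 members fell and 1 rose. Egfr itself read 1628, 1632, 1712 and 2234 at baseline and 2092, 1735, 2487, 2398 and 2154 under entinostat (0.27 ± 0.21, adjusted p = 0.281), so the groups overlapped. Erbb2 read 1978, 1928, 2866 and 3126 against 249.9, 259, 448, 248 and 264 (−3.08 ± 0.22, adjusted p = 8.71e-08). Erbb2 thus fell without overlap. Erbb3, a kinase-poor member of the family, read 2037, 813, 2919 and 3711 against 127, 98.3, 269, 90.8 and 106 (−4.02 ± 0.50, adjusted p = 1.55e-05). Among ligands, Tgfa read 1621, 649.7, 2023 and 1407 against 26.6, 57.2, 44.8, 27.8 and 51.6 (−5.02 ± 0.32, adjusted p = 5.19e-08), and Btc (−3.81), Areg (−4.41) and Hbegf (−3.49) fell. Nrg4, the 1 member that rose, passed at an adjusted p of 0.0421 and lost the call without any 1 of 6 tumours, with adjusted p-values of 0.0926 (413), 0.087 (415), 0.0522 (416), 0.0794 (418), 0.12 (419) and 0.0689 (421). It also lost the call under quantile (0.193) and cyclic loess scaling (0.211), with no filter on low values (0.0588) and without the muscle-rich tumours (0.144).

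FGF genes moved in both directions. Fgfr2, a receptor with an epithelial isoform, read 3583, 2078, 3061 and 3546 against 90.1, 159, 371, 92.1 and 147 (−4.33 ± 0.52, adjusted p = 1.16e-05), and Fgfr3 (−6.07) fell with it. Fgfr1, a receptor common in mesenchymal cells, rose from 1107, 963, 603 and 92.3 to 8017, 6234, 9510.4, 7522 and 5288 (3.85 ± 0.97, adjusted p = 0.00389), together with the fibroblast ligands Fgf7 (4.93), Fgf10 (4.70) and Fgf2 (2.59). Fgfbp1, a secreted carrier that releases FGFs from the matrix, read 12074, 1575, 13765 and 10648 against 4.69, 16.9, 0, 1.64 and 0 (−11.21 ± 0.88, adjusted p = 2.22e-07). This was the lowest log2 fold change among the genes named by rule. The heparan sulphate proteoglycans moved oppositely, with Sdc1, syndecan 1 of epithelium, at −1.94 and Gpc1, glypican 1, at 2.05. In all, 6 of 15 rose and 4 fell, beside 29.1% higher and 25.3% lower over all genes tested.

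Stromal genes were higher. Of 20 collagen genes 18 rose and none fell, with a median of 3.67; Col7a1, the anchoring fibril collagen (−0.12 ± 0.54, adjusted p = 0.863), and Col18a1 of basement membranes (0.496 ± 0.37, adjusted p = 0.274) did not pass. Col1a1, a chain of the main fibrillar collagen (chr11:94936224-94953042), read 40109.9, 35169, 17319 and 2598 at baseline and 232276, 203397, 296161, 252384 and 198271 under entinostat (3.88 ± 1.12, adjusted p = 0.00863). Col12a1, a collagen that binds fibrils, read 6446, 5189, 3588 and 538 against 50626, 67889.6, 62000.3, 60569 and 39466 (4.28 ± 0.89, adjusted p = 0.00102). Col11a1, known from cancer-associated fibroblasts, read 89.1, 31.9, 39.8 and 12.9 against 411.1, 836, 1124, 442 and 1559 (4.42 ± 0.90, adjusted p = 9.05e-04). Baseline tumour 426 held the lowest value for all 3 genes, and the collagen median without it was 2.89. Col4a1, Col4a2, Col5a3, Col6a2, Col8a1 and Col8a2 did not pass without it (adjusted p from 0.0536 to 0.162).

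In the matrix list 24 of 26 members rose; the glycoproteins Tnc (1.10, adjusted p = 0.131) and Fbln1 (0.78, adjusted p = 0.111) did not pass. The small leucine-rich proteoglycans, which space collagen fibrils, had large changes. Lum, lumican, read 601, 784, 207 and 86.2 at baseline and 20392, 25443, 18185, 20165 and 13252 under entinostat (5.97 ± 1.09, adjusted p = 3.86e-04). Fmod, fibromodulin, read 309, 428, 135 and 54.9 against 3809, 7147, 5942, 4917 and 8781 (5.04 ± 1.01, adjusted p = 7.68e-04), and Dcn (6.28) and Ogn (6.53) rose as well. All 4 of these proteoglycan genes passed. Thbs2, a thrombospondin that limits vessel growth, read 7925, 7610.4, 3732 and 722 against 50392, 66071, 78944, 42778 and 53846 (3.998 ± 0.72, adjusted p = 3.45e-04). Tnn, tenascin N, read 434, 365, 233 and 3.66 against 17355, 11353, 4583, 6420 and 6663 (6.17 ± 1.18, adjusted p = 5.59e-04). For each of these genes the lowest entinostat tumour lay above the highest baseline tumour.

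Matrix-degrading enzymes were higher beside the matrix itself. Of 24 proteases and inhibitors 21 rose and 3 fell (Mmp7, Mmp15 and Adamts1). Mmp13, a collagenase, read 6203, 1448, 5784 and 1329 at baseline and 78842, 92917, 169409, 57740.4 and 70342 under entinostat (4.92 ± 0.54, adjusted p = 5.17e-06). Mmp8, the neutrophil collagenase by name but also made by other cells, read 9.38, 27.8, 62.9 and 1.83 against 1896, 3717, 2568, 1297 and 1307 (7.02 ± 0.82, adjusted p = 8.88e-06). Mmp12, the macrophage elastase, read 2338, 1680.1, 4921 and 743 against 342139, 205639, 29340.4, 160526 and 380247 (6.41 ± 0.76, adjusted p = 1.07e-05); entinostat tumour 418 held the lowest of the 5 values, still above every baseline tumour. Neither Mmp13, Mmp8 nor Mmp12 overlapped between groups. Mmp11, stromelysin 3, read 224, 267, 156 and 103 against 2175, 1866, 4166, 5560 and 1197 (3.86 ± 0.56, adjusted p = 6.35e-05). Mmp7, matrilysin of epithelium, went the other way, 39.6, 539.9, 164 and 107 at baseline and 17.4, 1.20, 8.50, 26.0 and 6.03 under entinostat (−3.90 ± 1.20, adjusted p = 0.0128), and lost its call without the muscle-rich tumours (adjusted p = 0.0593).

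Markers of fibroblasts were higher as well. In that list 18 of 21 rose and 2 fell. Fap, fibroblast activation protein, read 120.5, 188, 34.4 and 48.5 against 1539, 1062, 1932, 1547 and 1132 (4.14 ± 0.68, adjusted p = 1.68e-04). Pdpn, podoplanin, read 318, 326.02, 378 and 48.2 against 12248, 7726, 6560.2, 12805 and 9992 (5.51 ± 0.98, adjusted p = 3.11e-04). Tumour 419 was the lowest at baseline for Fap, and tumour 426 for Pdpn. Igf1, a growth factor made by fibroblasts and macrophages, read 290.3, 319.3, 250.4 and 112 against 7919, 8277, 3997, 7566 and 8406 (4.95 ± 0.76, adjusted p = 9.38e-05). The members that fell were Ly6a and Ly6c1, surface proteins that epithelial and endothelial cells can also carry; Ly6a read 45845, 27701, 56405 and 82212 against 14240.2, 11228, 26522, 22765 and 11098, without overlap, and did not pass without the muscle-rich tumours (adjusted p = 0.0518). The call of Ly6c1 (adjusted p = 0.046) was lost without any 1 of 6 tumours, with adjusted p-values between 0.0647 and 0.13 (tumours 411, 413, 415, 419, 423 and 426).

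Of 14 genes of pericytes and smooth muscle, the contractile cells of vessel walls, 13 rose and 1 fell. Lmod1, leiomodin, read 37.5, 44.0, 47.9 and 8.24 against 289, 1133, 469.7, 203 and 520.5 (3.89 ± 0.73, adjusted p = 4.44e-04). Cnn1, calponin, read 141, 165, 74.1 and 4.58 against 422.9, 1778, 1373, 902 and 743 (4.05 ± 0.88, adjusted p = 0.00142). Myh11, smooth muscle myosin, read 217, 133, 74.1 and 31.1 against 518, 1539, 1299, 396 and 1522 (3.31 ± 0.74, adjusted p = 0.00174). Notch3, a receptor of pericytes, fell (−1.09 ± 0.26, adjusted p = 0.00277). Entinostat tumour 413, the tumour with the most skeletal muscle signal, was the highest for Lmod1, Cnn1 and Myh11. Without the muscle-rich tumours 10 members rose and 1 fell, in a fit of fewer tumours. The part of muscle in these values was not tested.

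The list of blood vessel endothelium had a median of 1.86, with 18 of 23 higher and none lower. Vcam1, an adhesion molecule for leukocytes, read 645, 808, 732 and 329.7 against 3629, 4948, 7818, 3593 and 6207 (3.07 ± 0.62, adjusted p = 7.84e-04). Selp, P-selectin, read 113, 40.4, 72.1 and 12.1 against 270.2, 532, 1101, 480.5 and 386 (3.42 ± 0.76, adjusted p = 0.00166). Entinostat tumour 418 was the highest of the 5 for both. Tek, the angiopoietin receptor, read 116, 61.5, 38.3 and 22.8 against 597, 644, 802, 512 and 645 (3.63 ± 0.96, adjusted p = 0.00524). Pecam1, the pan-endothelial adhesion molecule CD31, read 1902, 1287, 1016 and 429 against 4484, 4431, 7566, 4679 and 4685 (2.31 ± 0.70, adjusted p = 0.0112). Tumour 426 was the lowest of the baseline tumours for these genes. The count of endothelial genes that rose depended on single tumours, being 9 without baseline tumour 426, 10 without baseline tumour 419, 11 without entinostat tumour 418 and 11 without the muscle-rich tumours. Of 8 lymphatic vessel genes 5 rose (median 3.01), among them Reln, reelin, from 0, 2.56, 0 and 6.28 to 47.9, 40.9, 75.8, 11.1 and 108 (4.35 ± 0.90, adjusted p = 9.92e-04) and the ligand Vegfd (3.57 ± 0.86, adjusted p = 0.00295), but 2 without baseline tumour 416 and 3 without baseline tumour 419 or under cyclic loess scaling.

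Regulators of the mesenchymal state were split between family members. Zeb2, a repressor of E-cadherin, read 393, 519.7, 251 and 83.7 at baseline and 4253, 3441, 1885, 3136 and 4652 under entinostat (3.69 ± 0.63, adjusted p = 2.33e-04). Vim, the intermediate filament vimentin of mesenchymal cells and leukocytes (chr2:13574311-13582826), read 5915, 4859, 4447 and 1222 against 86018, 44659, 43339, 99038 and 60199 (4.16 ± 0.84, adjusted p = 8.48e-04). Itga5, the fibronectin receptor subunit, and Tcf4 rose too (2.60 and 1.76). Snai2, a Snail-family repressor also present in basal epithelium, fell from 1602, 796, 1349 and 1016 to 299, 318, 335, 318 and 274 (−1.90 ± 0.40, adjusted p = 0.0012), as did Snai3 and Sox9 (−2.95 and −1.55). The list counted 8 higher and 3 lower of 12.

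In the TGF-beta and BMP list 9 of 23 rose and 4 fell. The ligand Bmp7 of epithelia fell from 2731, 764, 2065 and 1768 to 14.9, 28.4, 42.1, 28.8 and 29.7 (−5.87 ± 0.48, adjusted p = 3.03e-07). Bmp2, a ligand of the same family, fell from 449, 368, 354 and 407 to 61.6, 66.0, 96.1, 110.3 and 27.7 (−2.57 ± 0.41, adjusted p = 1.25e-04). Both ligands were lower in every entinostat tumour. The BMP antagonist Grem1 rose from 305.4, 113, 345 and 22.9 to 5079.5, 4204, 4989.6, 2544 and 2714 (4.84 ± 0.73, adjusted p = 8.27e-05). The receptor Tgfbr1 rose from 728, 1015, 746 and 588 to 4229.7, 4811, 2642, 2345 and 5633 (2.30 ± 0.33, adjusted p = 5.14e-05). None of these 4 genes overlapped between groups. Tgfb1, the main ligand, rose by less (0.81 ± 0.23, adjusted p = 0.00805).

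**Figure D2:**
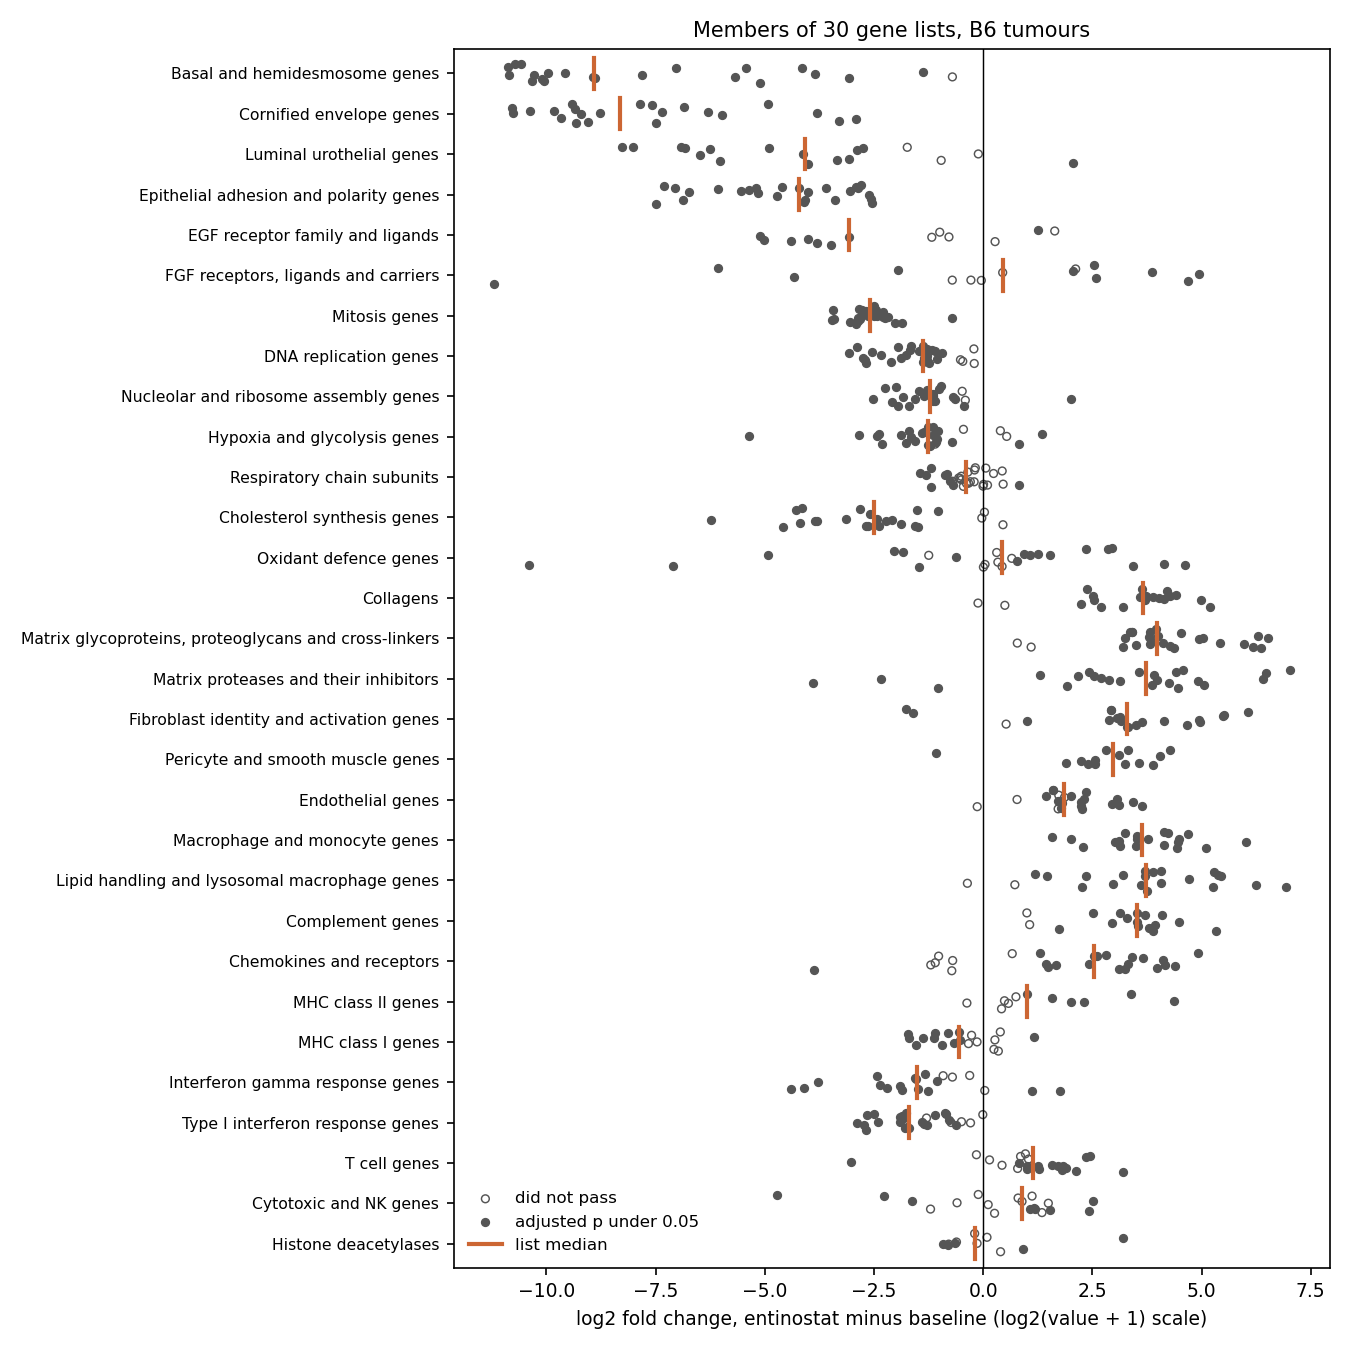
Log2 fold change (entinostat minus baseline, log2(value + 1) scale) of each tested member of 30 gene lists, with 1 point per gene and a bar at the list's median; filled points passed at an adjusted p under 0.05. Epithelial, mitosis and cholesterol lists lie left of 0, with medians of −8.92, −2.59 and −2.51, and matrix and macrophage lists lie right of it, at 3.98 and 3.65.

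Myeloid genes were the other large group that rose. In the macrophage and monocyte list 20 of 20 members rose (median 3.65), and none overlapped between groups. Cd68, a lysosomal protein of macrophages (chr11:69664213-69666170), read 1062, 1304, 1581 and 1094 at baseline and 29998, 19403, 12203, 25958 and 27099 under entinostat (4.13 ± 0.41, adjusted p = 1.90e-06). Mpeg1, the pore-forming perforin-2, read 2272, 2583, 3975 and 803 against 59339, 45434, 37258, 38999.9 and 54603 (4.48 ± 0.52, adjusted p = 8.83e-06). Mertk, a receptor for the uptake of dead cells, read 80.1, 116, 70.3 and 33.7 against 3544, 2525, 1889.8, 1315 and 3514 (5.10 ± 0.67, adjusted p = 2.45e-05). Baseline tumour 426 was the lowest for Mpeg1 and Mertk, but not for Cd68. Cd53, a tetraspanin of leukocytes, read 648, 1352, 671 and 269 against 12526, 14464, 6147, 11180.3 and 14037 (4.15 ± 0.49, adjusted p = 9.65e-06). The recruiting receptors Ccr2 and Cx3cr1 rose by 3.25 and 3.14.

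The promoter of Cd53 is printed because leukocyte genes are commonly under the transcription factor PU.1. The stretch of 300 bases runs from 250 before to 50 after the RefSeq start (GRCm38.p6, chr3:106790100-106790399, minus strand), 5′ to 3′ of the gene, with the match to GAGGAAGT, searched on both strands, in capitals.

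Cd53: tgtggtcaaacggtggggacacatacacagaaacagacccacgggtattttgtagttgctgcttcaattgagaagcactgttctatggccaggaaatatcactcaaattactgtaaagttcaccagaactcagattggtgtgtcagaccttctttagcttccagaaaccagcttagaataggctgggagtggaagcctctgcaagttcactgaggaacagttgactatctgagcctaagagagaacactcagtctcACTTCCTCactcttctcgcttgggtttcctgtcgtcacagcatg

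This motif stood in the promoters of 2 of the 15 macrophage genes matched to RefSeq (13.3%) and in 3.92% of all 12059 tested genes with a promoter. A match is a description of letters, not a bound site.

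Genes of lipid uptake and of the lysosome were higher as well. In that list 20 of 22 rose and none fell, with a median of 3.74. Ctsb, the lysosomal protease cathepsin B, read 19610.2, 20629, 22029.7 and 14845 against 309510.1, 246737, 174985, 249227 and 291413 (3.71 ± 0.28, adjusted p = 1.59e-07). Ctsd, cathepsin D, read 18676, 21137, 28546 and 27117 against 354066, 301534, 153345, 400897 and 303672 (3.62 ± 0.31, adjusted p = 4.39e-07). Lgmn, legumain, read 4806, 4660.4, 4328 and 2368 against 47982, 53507, 41412, 57728 and 53557 (3.70 ± 0.36, adjusted p = 1.52e-06). None of the 3 proteases overlapped between groups. Plin2, a coat protein of lipid droplets, read 2847, 3273, 2939 and 1418 against 52476, 44647, 22408, 50449.7 and 48258 (4.07 ± 0.39, adjusted p = 1.24e-06). Trem2, a lipid-sensing receptor of macrophages, read 459, 401.2, 548 and 95.7 against 15418, 10218, 6665, 22921 and 10821 (5.27 ± 0.73, adjusted p = 4.08e-05), and the cholesterol exporters Abca1 (5.30) and Abcg1 (3.76) rose. Atp6v0d2, a proton pump subunit of osteoclasts and macrophages, read 92.8, 155, 189 and 49.5 against 14018, 11948, 1889.9, 8035 and 15090. Entinostat tumour 418 was the lowest of the 5 for each of Ctsb, Ctsd, Lgmn, Plin2, Trem2, Abca1 and Atp6v0d2. Fabp5 and Cd9, members also expressed in epithelium, did not pass (−0.36 and 0.73).

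Genes used to describe macrophage activation moved less, 8 of 20 higher and none lower. Mrc1, the mannose receptor, read 1422, 1868, 401.9 and 278 against 8157, 13453, 8403, 19062 and 9834 (3.92 ± 0.86, adjusted p = 0.00152). Folr2, a folate receptor of resident macrophages, read 359.7, 646, 66.6 and 19.3 against 2681, 2870.1, 2756, 3617 and 2123 (4.37 ± 1.19, adjusted p = 0.00624). Tgfbi read 8201, 5116, 6655 and 4996 against 13188, 13966, 15757, 10789 and 16366 (1.18 ± 0.23, adjusted p = 6.52e-04). The inflammatory genes Nos2 (0.17 ± 0.83, adjusted p = 0.876), Tnf (−0.08 ± 0.44, adjusted p = 0.889) and Il1b (0.67 ± 0.57, adjusted p = 0.332) did not pass, nor did Arg1 (0.34 ± 0.76, adjusted p = 0.726), and the groups overlapped for all 4.

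Complement genes rose in 15 of 17 cases, with a median of 3.53. C1qb and C1qc, chains of the recognition molecule made by macrophages, both rose. C1qb read 4869, 5904, 5162 and 1269 against 44007, 46296, 55821, 65408 and 36764 (3.72 ± 0.64, adjusted p = 2.37e-04). C1qc read 3872, 4545, 4826 and 1006 against 28532, 36069, 40299.5, 47395 and 27495 (3.53 ± 0.63, adjusted p = 3.22e-04). Tumour 426 had the least of both at baseline. C3ar1, the receptor for the C3a fragment, read 326.9, 488, 572 and 106 against 14458, 12774, 8329, 12165 and 18033 (5.34 ± 0.61, adjusted p = 7.74e-06). C2 read 741, 581, 630.1 and 594 against 1622, 1496, 3751, 2888 and 1614 (1.74 ± 0.29, adjusted p = 1.64e-04). Factor B, Cfb, overlapped between groups and did not pass (adjusted p = 0.252).

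Other myeloid lists were mixed. Of 15 neutrophil genes 8 rose and 1 fell (5 of 11 rose with the filter at 50 and 5 of 13 without the muscle-rich tumours). Camp, a granule antimicrobial peptide, read 0, 0.678, 0 and 0 against 17.4, 12.0, 506, 30.8 and 91.7 (5.50 ± 0.90, adjusted p = 1.57e-04), with entinostat tumour 418 highest. S100a8, a calcium-binding protein of neutrophils, read 469, 1123, 850.3 and 196 against 1972, 913, 4981, 3156 and 2380.2 (2.09 ± 0.57, adjusted p = 0.00658). Ltf, lactoferrin of neutrophil granules and of glandular epithelium, fell from 5483, 16682, 11694 and 91909.9 to 897, 625, 2393, 2191 and 179 (−4.33 ± 0.87, adjusted p = 7.96e-04). The number that rose was 4 without baseline tumour 426, and 5 without baseline 419, entinostat 418 or entinostat 421, or without the muscle-rich tumours. Of 17 dendritic cell genes 12 rose. The costimulatory ligand Cd80 read 93.9, 105, 92.0 and 47.8 against 721, 568, 467, 586 and 788 (2.91 ± 0.38, adjusted p = 2.31e-05). Cd86, another such ligand, read 202, 237, 216 and 74.8 against 1615, 2411, 2493, 2264 and 2359.7 (3.71 ± 0.49, adjusted p = 2.54e-05). The maturation marker Cd83 (3.92 ± 0.49, adjusted p = 1.58e-05) and the signal regulator Sirpa (3.69 ± 0.43, adjusted p = 8.34e-06) were likewise higher; macrophages also express these genes. Fscn1, an actin bundler of dendritic and tumour cells, fell (−1.20 ± 0.18, adjusted p = 5.89e-05). Markers of the cross-presenting subset were low, with Xcr1 at 22.5, 46.0, 29.1 and 12.8 against 37.2, 51.6, 96.1, 34.0 and 58.9 (1.02 ± 0.50, adjusted p = 0.0945). Of 11 mast cell and eosinophil genes 3 rose, including Siglecf from 24.5, 47.3, 13.4 and 4.74 to 251, 144, 55.5, 141 and 228 (3.04 ± 0.75, adjusted p = 0.00342) and Ccr3 (2.20 ± 0.59, adjusted p = 0.00583); Ccr3 lost its call without the muscle-rich tumours (adjusted p = 0.0523), and the third, Prg2 (adjusted p = 0.0323), also when single tumours were left out (adjusted p up to 0.12). In a fit of the 9 libraries alone 6 of the 11 rose. Over all genes tested 29.1% rose, so the reported 3 of 11 do not set the list apart.

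Chemokines and their receptors were mostly higher, 18 of 25, with 1 lower (3 lower in a fit of the 9 libraries alone). Ccr1, a receptor for inflammatory CC chemokines on monocytes and other leukocytes, read 602, 918, 799.6 and 206 against 6459, 6895, 4167, 4959 and 7488 (3.41 ± 0.48, adjusted p = 4.38e-05). Cxcr3, the receptor of the interferon-induced chemokines on T cells, read 38.5, 46.1, 25.3 and 16.5 against 253, 249.6, 319.6, 251 and 394 (3.25 ± 0.52, adjusted p = 1.25e-04). Cxcl16 read 3308, 4089, 3738 and 2466 against 7718, 9112, 9586, 9278 and 9901 (1.44 ± 0.18, adjusted p = 1.58e-05). None of the 3 overlapped between groups. Cxcl3, a neutrophil attractant, fell from 2119, 6253, 3217 and 2900.1 to 236, 613, 124, 352 and 90.1 (−3.89 ± 0.71, adjusted p = 3.86e-04), while Ccl2 did not pass (−0.70 ± 0.52, adjusted p = 0.268). Other attractants of myeloid cells rose, among them Ccl6 (4.12), Ccl9 (4.91), Ccl7 (2.55), Ccl12 (3.11) and Ccl3 (2.41).

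**Figure D3:**
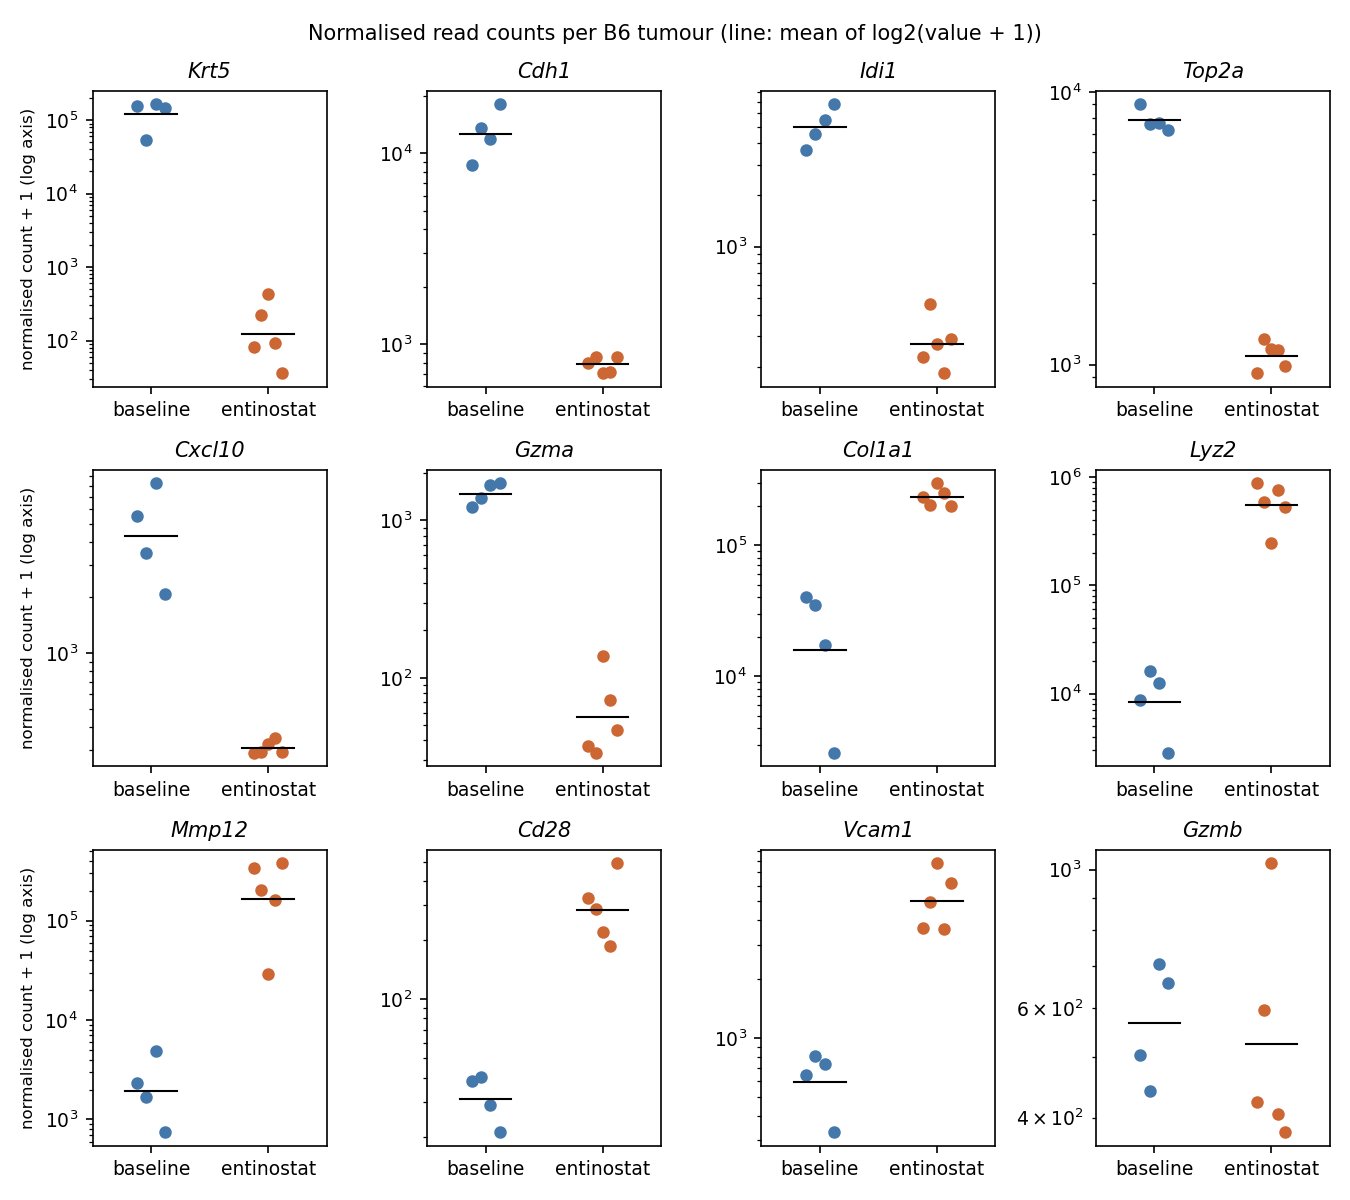
Normalised read count (log axis, value + 1) of 12 genes in each of the 4 baseline and 5 entinostat tumours, 1 point per tumour, with a line at each group's mean of log2(value + 1). Krt5, Cdh1, Idi1, Top2a, Cxcl10 and Gzma are lower in every entinostat tumour than in any baseline tumour, Col1a1, Lyz2, Mmp12, Cd28 and Vcam1 are higher in every entinostat tumour, and Gzmb overlaps.

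Genes induced by interferons were mostly lower. In the type I interferon list none of 27 members rose and 22 fell, with a median of −1.71, and in the interferon gamma list 14 of 20 fell while 2 rose. The members that rose were the receptor chains. Ifngr1 read 1899, 3298, 2439.8 and 2359 against 9504, 7273, 8855, 7942 and 7949 (1.75 ± 0.26, adjusted p = 7.97e-05). Ifngr2 read 1879.9, 2564, 1833 and 1945 against 4928, 4108, 3644, 5268 and 4271 (1.11 ± 0.18, adjusted p = 1.55e-04). The receptor chains were thus higher in every entinostat tumour. Parp9, a regulator of interferon signalling, read 3838, 5121, 5495 and 5569 against 1493, 1448, 1899, 1069 and 1655 (−1.74 ± 0.22, adjusted p = 1.53e-05). Ifi35 read 3335, 3959, 3492 and 4613 against 852, 879, 1373, 1661 and 939 (−1.80 ± 0.27, adjusted p = 7.03e-05). None of these genes overlapped between groups. Oas3, a sensor of double-stranded RNA (chr5:120753098-120777684), read 896, 2233, 2623 and 4598 against 306.1, 244, 425.8, 291 and 449 (−2.73 ± 0.47, adjusted p = 2.38e-04). Ifit1 read 1365, 6169, 3365 and 5558 against 618, 315.4, 640.0, 963 and 407 (−2.69 ± 0.47, adjusted p = 2.84e-04). Baseline tumour 415 was the lowest baseline tumour for Oas3 and Ifit1. Ifit3 lost its call without baseline tumour 416, which held its highest value of 19570 (adjusted p = 0.0572).

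The interferon-stimulated response element, spelled GAAA, any 2 bases, GAAA, was searched on both strands of the promoters, and those of Oas3 and Ifit1 are shown because both genes fell and hold it. They run from 250 bases before to 50 after the RefSeq start in GRCm38.p6, Oas3 at chr5:120777610-120777909 on the minus strand and Ifit1 at chr19:34640639-34640938 on the plus strand, each 5′ to 3′ of its gene with the matches in capitals.

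Oas3: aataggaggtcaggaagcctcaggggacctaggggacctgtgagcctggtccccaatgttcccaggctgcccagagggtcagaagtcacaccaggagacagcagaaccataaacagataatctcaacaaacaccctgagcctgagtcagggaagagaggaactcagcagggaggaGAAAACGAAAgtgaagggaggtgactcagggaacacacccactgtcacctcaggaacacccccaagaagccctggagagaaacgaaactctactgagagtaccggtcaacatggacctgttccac
Ifit1: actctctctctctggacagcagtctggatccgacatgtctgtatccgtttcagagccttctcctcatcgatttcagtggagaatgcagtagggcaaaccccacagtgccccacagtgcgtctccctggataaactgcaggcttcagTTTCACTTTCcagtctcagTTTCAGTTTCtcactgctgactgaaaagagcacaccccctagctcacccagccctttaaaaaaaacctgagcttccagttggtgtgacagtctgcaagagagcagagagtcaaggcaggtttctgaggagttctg

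The element stood in 10 of 19 type I promoters (52.6%), in 9 of 14 interferon gamma promoters (64.3%) and in 3.87% of all tested genes with a promoter. The lists were chosen as interferon-induced genes, so the share describes them and tests nothing.

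Among interferon gamma targets, Cxcl10, the Cxcr3 ligand (chr5:92346638-92348889), read 5527, 3476, 8232 and 2092 against 289.9, 293, 324, 349.7 and 293, a narrow range (−3.78 ± 0.30, adjusted p = 2.21e-07). Cxcl11 read 159.7, 267, 186 and 101 against 6.33, 6.54, 4.64, 17.7 and 14.4 (−4.11 ± 0.58, adjusted p = 4.74e-05). Cxcl9 read 8664, 1982, 12029 and 1724 against 609, 1028, 1013, 380.0 and 1441 (−2.42 ± 0.71, adjusted p = 0.01). The 3 ligands were lower while their receptor Cxcr3 was higher. The immunity-related GTPases Irgm1 and Igtp both fell. Irgm1 read 8825, 8211, 12143 and 10373 against 2519.9, 2329.6, 4173, 2056 and 2477 (−1.90 ± 0.21, adjusted p = 4.85e-06). Igtp read 9882, 7705, 14212 and 10564 against 1672, 1621, 3844, 1973 and 1644 (−2.35 ± 0.29, adjusted p = 1.55e-05). Entinostat tumour 418 was the highest of the 5 for Irf1, Irgm1 and Igtp, yet below the lowest baseline tumour for Irgm1 and Igtp. Ifng itself read 96.9, 31.2, 119 and 18.4 against 13.95, 42.0, 19.1, 24.3 and 16.9 (−1.21 ± 0.57, adjusted p = 0.0865) and did not pass.

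Antigen presentation genes were counted by class. Among MHC class I genes 11 of 19 fell and 1, H2-M3, rose. The peptide transporter subunit Tap1 read 9798, 6683, 9849 and 7643 against 2306, 2704, 4930.4, 2429 and 2755 (−1.53 ± 0.24, adjusted p = 9.63e-05), and the immunoproteasome subunits Psmb8 and Psmb10 both fell. Psmb8 read 13299.9, 10954, 10231 and 8474 against 4322, 4444, 6302, 5391 and 4618 (−1.09 ± 0.18, adjusted p = 1.54e-04). Psmb10 read 6272, 6770, 5088 and 4003 against 1249, 1305, 1883, 3336 and 1245 (−1.70 ± 0.33, adjusted p = 6.48e-04). For all 3 the groups did not overlap. H2-Q7, a non-classical heavy chain whose paralogs share reads, read 9883, 9273, 10206 and 6314 against 2319, 2431, 6002, 4148 and 3001 (−1.39 ± 0.26, adjusted p = 4.31e-04). The classical chain H2-K1 fell (−0.67 ± 0.20, adjusted p = 0.0107), while B2m, the shared light chain, did not pass (0.25 ± 0.23, adjusted p = 0.389), nor did H2-D1 (0.27 ± 0.17, adjusted p = 0.182). Without the muscle-rich tumours 7 members fell, H2-K1 no longer among them (adjusted p = 0.109).

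Of 11 MHC class II genes 6 rose. The most changed was Ctss, the cathepsin that trims the invariant chain, from 8885, 9686, 11227 and 3228 to 190513, 184112, 88378, 160923 and 181491 (4.38 ± 0.46, adjusted p = 3.61e-06). The chains H2-Ob and H2-DMb2, parts of complexes that edit peptide loading, both rose. H2-Ob read 23.8, 29.0, 51.6 and 5.98 against 165, 211, 386, 175 and 314 (3.38 ± 0.61, adjusted p = 3.56e-04). H2-DMb2 read 118, 126, 51.1 and 28.0 against 251, 348, 400.2, 324 and 411.3 (2.31 ± 0.49, adjusted p = 0.00111). H2-Aa rose (1.58 ± 0.40, adjusted p = 0.00372), but the invariant chain Cd74 (0.42 ± 0.41, adjusted p = 0.406), H2-Ab1 (0.49 ± 0.40, adjusted p = 0.321) and the master regulator Ciita (−0.37 ± 0.75, adjusted p = 0.694) did not pass.

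In the median, the T cell, cytotoxic and regulatory T cell lists were higher by less than the macrophage and monocyte list (3.65). Medians were 0.889 for the cytotoxic and NK list and 1.15 for the regulatory T cell and checkpoint list. The B and plasma cell list had a median of 3.33. In the T cell list 14 of 22 members rose and 1 fell, with a median of 1.15. Cd28, the costimulatory receptor, read 37.4, 39.2, 28.1 and 20.1 at baseline and 325.7, 286, 217, 186 and 491 under entinostat (3.19 ± 0.50, adjusted p = 1.15e-04). Icos read 172, 103, 142 and 52.1 against 472, 385, 590.1, 432 and 1092 (2.35 ± 0.46, adjusted p = 5.95e-04). Cd3d, part of the CD3 complex, read 209.7, 155, 176 and 139 against 341, 348, 585, 566 and 802 (1.57 ± 0.35, adjusted p = 0.00149). Entinostat tumour 423 was the highest of the 5 for all 3. Cd8a, of cytotoxic T cells, read 440.3, 349, 499 and 407 against 264, 409, 659, 282 and 1081 and overlapped (0.15 ± 0.42, adjusted p = 0.786). Its partner Cd8b1 rose (1.26 ± 0.37, adjusted p = 0.0101). Cd4, of helper T cells, read 105, 95.2, 106 and 32.8 against 288, 258, 359, 218 and 791 (2.13 ± 0.69, adjusted p = 0.0169) and lost the call without baseline tumour 426 (adjusted p = 0.0638) or the muscle-rich tumours (0.0887). Cd3e (adjusted p = 0.0287) lost it without baseline tumours 415 (0.0601), 419 (0.0557) or 426 (0.0537), or entinostat tumours 418 (0.0624), 421 (0.0545) or 423 (0.0758). Bcl11b, a factor of T cells and also of basal epithelium, fell from 1393, 612, 1555 and 1086 to 91.7, 172, 139, 83.8 and 235 (−3.02 ± 0.60, adjusted p = 6.92e-04).

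Cytotoxic genes did not move as a block: of 19 members 6 rose and 3 fell, beside 29.1% and 25.3% of all genes tested. Under cyclic loess scaling 3 rose and 4 fell, and without the muscle-rich tumours 2 rose and 2 fell. Gzma, the tryptase granzyme A, read 1212, 1385, 1667 and 1716 at baseline and 36.1, 32.4, 136, 71.4 and 45.9 under entinostat (−4.71 ± 0.58, adjusted p = 1.47e-05). Gzmb, the caspase-cleaving granzyme B, read 504, 441, 706 and 656 against 423.1, 594, 1024, 404 and 378 (−0.11 ± 0.32, adjusted p = 0.781). Prf1, perforin, read 59.1, 50.1, 163 and 56.0 against 59.3, 127, 136, 27.6 and 102 (0.11 ± 0.58, adjusted p = 0.88); both overlapped. The NK receptors Klrk1 and Klrb1c both rose. Klrk1 read 194, 135, 162 and 98.9 against 287, 302.4, 633, 277 and 779.7 (1.52 ± 0.42, adjusted p = 0.00648). Klrb1c read 26.4, 33.0, 9.05 and 3.87 against 115, 61.2, 44.1, 78.2 and 159.9 (2.52 ± 0.69, adjusted p = 0.00632). Eomes, a factor of effector and NK cells, fell from 53.9, 168, 56.5 and 38.6 to 13.8, 8.29, 19.0, 6.40 and 26.1 (−2.27 ± 0.60, adjusted p = 0.00533). The sequences of the granzyme genes resemble each other, so reads may be split among them.

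Genes of regulatory T cells and checkpoints rose in 10 of 18 cases. Vsir, the checkpoint ligand VISTA of myeloid cells, read 924, 1249.5, 872 and 177 against 15275, 11430.2, 11388, 10233 and 14038 (4.24 ± 0.72, adjusted p = 2.13e-04). Entpd1, the ectonucleotidase CD39, read 720.3, 730.2, 710.3 and 203 against 4842, 3458, 5195, 3883 and 3803 (2.99 ± 0.52, adjusted p = 2.53e-04). Macrophages express both, and both were lowest in baseline tumour 426. Havcr2, TIM-3 of T cells and myeloid cells, read 195, 253, 326.2 and 179 against 1886, 1525, 1097, 1317 and 2251 (2.75 ± 0.36, adjusted p = 2.67e-05). Ctla4 read 104, 75.9, 51.6 and 76.2 against 347, 296, 362, 295 and 715 (2.33 ± 0.36, adjusted p = 1.03e-04). Havcr2 and Ctla4 did not overlap between groups. Cd274, PD-L1, rose from 758, 1007, 1751 and 755 to 3341, 3209, 2203, 1999 and 4061 (1.51 ± 0.33, adjusted p = 0.0013), and its receptor Pdcd1 rose too (2.09). Foxp3, the factor of regulatory T cells, read 153, 144, 164 and 146 against 288, 211, 363, 525 and 257; it did not pass, although every entinostat tumour lay above every baseline tumour (1.04 ± 0.43, adjusted p = 0.0539). Ikzf2, shared by regulatory T cells and epithelium, fell (−1.41 ± 0.45, adjusted p = 0.0157); without baseline tumour 426 its adjusted p was 0.0673.

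B cell and plasma cell genes varied widely between entinostat tumours. Ighg1, an immunoglobulin heavy chain, read 211, 537, 71.3 and 0 against 661, 144, 1484, 691 and 89299.9 and did not pass (4.85 ± 2.09, adjusted p = 0.0613). Tumour 423 held most of this signal. Cd22, a lectin of B cells and of some myeloid cells, read 39.7, 69.6, 61.9 and 12.1 against 1131, 884, 486, 694 and 1216 (4.42 ± 0.71, adjusted p = 1.35e-04). Cd79b, a B cell receptor chain, read 47.9, 31.8, 21.997 and 10.3 against 133, 319.3, 498, 315.8 and 522 (3.67 ± 0.71, adjusted p = 6.10e-04). Irf4 read 87.1, 29.1, 39.4 and 32.0 against 272, 175, 237, 274 and 513 (2.67 ± 0.56, adjusted p = 0.00111). Of 17 tested members 7 rose and none fell; the count was 11 without entinostat tumour 411 or baseline tumour 415, 4 without entinostat tumour 418 or 423, and 3 without the muscle-rich tumours.

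Proliferation genes fell. All of the 28 mitosis genes fell, with a median of −2.59, and none overlapped between groups. Cdc20, the activator of the anaphase-promoting complex (chr4:118432901-118437343), read 3177, 3147, 2777 and 2068 at baseline and 240.1, 240.1, 276, 259.6 and 231 under entinostat (−3.46 ± 0.16, adjusted p = 2.06e-09). Top2a, the topoisomerase of dividing cells (chr11:98992947-99024199), read 9021, 7635, 7654 and 7267 against 930.0, 1240, 1137, 1127 and 987 (−2.87 ± 0.19, adjusted p = 6.12e-08). The entinostat tumours lay close together for both genes. Mybl2, a factor of the late cell cycle, read 817, 852, 932 and 522 against 106, 114, 109, 85.5 and 109 (−2.86 ± 0.20, adjusted p = 7.23e-08). Kif11, a spindle motor, read 2574, 2419, 2199 and 1753 against 310.1, 430.4, 297, 206 and 376 (−2.81 ± 0.19, adjusted p = 7.55e-08). Mki67, the Ki-67 antigen, read 5236, 3983, 4526 and 4384 against 1225, 1205, 1026, 772 and 1395 (−2.03 ± 0.20, adjusted p = 1.44e-06). Bub3, a checkpoint protein, had a smaller change (−0.713) and did not pass without the muscle-rich tumours (adjusted p = 0.0558).

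Promoters of genes active in G2 and M phase commonly carry the cell cycle homology region (CHR), TTTGAA, near the start. Those of Cdc20 and Top2a, which had the smallest p of the list, are shown in the same window as above (GRCm38.p6, Cdc20 at chr4:118437294-118437593 and Top2a at chr11:99024140-99024439, both on the minus strand), with TTTGAA on either strand in capitals.

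Cdc20: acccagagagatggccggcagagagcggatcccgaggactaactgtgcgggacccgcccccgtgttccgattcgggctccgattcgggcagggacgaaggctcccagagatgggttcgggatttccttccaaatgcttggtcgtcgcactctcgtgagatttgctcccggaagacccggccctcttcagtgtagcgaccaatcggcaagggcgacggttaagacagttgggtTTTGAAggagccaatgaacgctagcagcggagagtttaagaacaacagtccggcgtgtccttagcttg
Top2a: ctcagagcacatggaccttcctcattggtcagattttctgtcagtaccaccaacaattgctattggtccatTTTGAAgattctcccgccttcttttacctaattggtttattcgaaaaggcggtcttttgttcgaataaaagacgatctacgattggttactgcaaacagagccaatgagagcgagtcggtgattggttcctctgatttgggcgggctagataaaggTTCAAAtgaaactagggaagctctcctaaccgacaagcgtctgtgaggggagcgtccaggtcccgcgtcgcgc

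TTTGAA stood in 15 of 22 mitosis promoters (68.2%), in 4 of 24 DNA replication promoters (16.7%) and in 14.9% of all tested genes with a promoter. CCAAT stood in 81.8%, 58.3% and 42.2% of the same sets. The palindrome AACCGGTT of Grainyhead-like factors was in none of the 15 adhesion and 7 basal promoters available and in 0.29% of all.

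DNA replication genes fell in 26 of 30 cases, by less than the mitosis genes in the median (−1.38). Mcm5, a subunit of the replicative helicase, read 3855, 2439, 3320.3 and 2237 against 422.8, 495, 384, 512 and 424.4 (−2.70 ± 0.18, adjusted p = 5.52e-08). Rrm2, the regulated subunit of ribonucleotide reductase, read 4225, 3405, 4026 and 2907 against 401.04, 602, 481, 475 and 476 (−2.90 ± 0.23, adjusted p = 2.88e-07). Tyms, thymidylate synthase, read 1574, 1332, 1714 and 1092 against 301, 389.7, 384, 253 and 307 (−2.12 ± 0.17, adjusted p = 2.83e-07). The groups did not overlap for these 3 genes. Cdc45, a helicase cofactor, read 742, 644, 738 and 499.6 against 175, 158, 156, 172 and 169 (−1.96 ± 0.18, adjusted p = 8.73e-07). The 4 members that did not pass were Pcna (−0.47 ± 0.28, adjusted p = 0.176), Rfc5 (−0.52 ± 0.28, adjusted p = 0.13), Gins3 (−0.21 ± 0.19, adjusted p = 0.367) and Gins4 (−0.20 ± 0.19, adjusted p = 0.389).

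Nucleolar genes, which build ribosomes, fell in 21 of 24 cases. Myc, a factor that drives many of them, read 2969, 1736, 4086 and 3474 at baseline and 549, 377, 470.5, 687 and 516 under entinostat (−2.52 ± 0.30, adjusted p = 9.13e-06). Nop58 and Nop2 both fell. Nop58 read 3753, 3787, 4309 and 3572 against 948, 1006, 924, 793 and 894 (−2.08 ± 0.15, adjusted p = 1.16e-07). Nop2 read 2743, 2449, 2669 and 2032 against 641, 622, 663, 605 and 562 (−1.99 ± 0.15, adjusted p = 1.63e-07). Both are parts of the machinery that modifies ribosomal RNA, and neither overlapped between groups. Dkc1, dyskerin, read 1939, 1594, 2172 and 1733 against 464, 443, 319.9, 248 and 536 (−2.25 ± 0.21, adjusted p = 1.10e-06). Nolc1 read 3096, 3223, 3566 and 2018 against 937, 905, 877, 909.6 and 849.9 (−1.70 ± 0.16, adjusted p = 1.18e-06). Mycn, at most 15.05 in any of the 9 tumours, was the 1 that rose (2.02 ± 0.74, adjusted p = 0.0312), with no call without baseline tumour 419 (adjusted p = 0.0518), baseline tumour 426 (0.108), entinostat tumour 423 (0.0535) or under cyclic loess scaling (0.305).

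Hypoxia and glycolysis genes fell in 21 of 27 cases. Egln3, an oxygen sensor that is itself induced by hypoxia, read 32367, 12141, 55183 and 52784 against 1171, 1184, 395, 780.0 and 722 (−5.37 ± 0.54, adjusted p = 2.20e-06). Pdk1, which keeps pyruvate out of mitochondria, read 5275, 3790.2, 6795 and 5342 against 1089.6, 1186, 640.2, 809 and 1222 (−2.43 ± 0.27, adjusted p = 5.40e-06). Pfkl, a phosphofructokinase, read 10194, 7021, 12900.2 and 10438 against 2938, 2518, 2409.7, 2987 and 2593 (−1.89 ± 0.21, adjusted p = 4.52e-06). Tumour 416 was the lowest at baseline for all 3. Egln1, another oxygen sensor, read 8316, 5900.4, 10260.4 and 8114 against 2445, 3104, 1977, 2786 and 2133 (−1.70 ± 0.22, adjusted p = 1.94e-05). No value of these 4 genes overlapped between groups. Gapdh, often used as a reference gene, fell as well (−1.16 ± 0.28, adjusted p = 0.00283). Actb, another such gene, rose (1.02 ± 0.33, adjusted p = 0.0155), with no call under quantile scaling (adjusted p = 0.605) or without the muscle-rich tumours (0.0804). Pfkfb4 (1.35) and P4ha1 (0.82), whose product modifies collagen, rose. The volume of the baseline tumours is not stated, and the part of tumour size in these values was not tested.

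Of 29 respiratory chain subunits 8 fell and 1 rose, with a median of −0.383, beside 25.3% lower and 29.1% higher over all genes tested. In a fit of the 9 libraries alone 12 fell and 2 rose. Under quantile scaling, which moved the median of all genes from 0.01 to −0.13, 13 fell. Cyc1, Uqcrc1, Ndufv1 and Ndufa4 had the smallest p, with −1.32, −1.20, −1.19 and −1.45.

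Cholesterol synthesis genes, which share the transcription factor SREBP2, fell in 21 of 24 cases with a median of −2.51. Idi1, an isomerase of the early pathway, read 3668, 4524, 5500.2 and 6776 against 226, 460.4, 268, 182 and 290.0 (−4.19 ± 0.36, adjusted p = 4.61e-07). Srebf2, which encodes SREBP2, read 5738, 3838, 6781 and 6254 against 1039.5, 994, 1151, 830.1 and 1119 (−2.44 ± 0.23, adjusted p = 1.05e-06). Neither gene overlapped between groups. Along the pathway Hmgcs1 (−2.58), Fdps (−3.15), Sqle (−4.29), Lss (−3.81) and Cyp51 (−4.58) fell. Fdft1 (−0.03 ± 0.37, adjusted p = 0.947), Ebp (0.03 ± 0.34, adjusted p = 0.948) and Dhcr7 (0.45 ± 0.35, adjusted p = 0.283) did not pass and overlapped between groups. Genes of cholesterol export, listed with the macrophage genes above, went the other way, Abca1 from 504, 632, 383 and 209 to 22585, 19745, 6659.7, 15212 and 21468.

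Oxidant defence genes were divided, 11 of 25 higher and 7 lower, beside 29.1% higher and 25.3% lower over all genes tested. Gpx2, a glutathione peroxidase of epithelium, read 16533, 1125, 10758 and 15006 against 2.33, 7.21, 4.25, 4.87 and 4.82 (−10.40 ± 0.83, adjusted p = 2.81e-07). Gsta4 read 8925, 5204, 22388 and 31457 against 62.8, 155, 168, 123 and 41.0 (−7.11 ± 0.63, adjusted p = 6.64e-07). Gsto1 read 70712, 32205, 141716 and 277508 against 2658, 4846, 2991, 3979 and 2189 (−4.93 ± 0.63, adjusted p = 1.99e-05). The 3 genes were lowest at baseline in tumour 416. Prdx1, a peroxiredoxin, rose from 14593, 17564, 12136 and 13899 to 122973, 137365, 42139.5, 119304 and 150442 (2.86 ± 0.30, adjusted p = 2.69e-06), with entinostat tumour 418 the lowest of the 5, and Hmox1, which breaks down haem, rose by 2.36.

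RNA of Hdac1, Hdac2 and Hdac3, targets of the drug, changed by less than 1 on the log2 scale. Hdac1 (chr4:129516104-129542646) read 3373, 4822, 2851 and 2961 at baseline and 2127, 2178, 2724, 1820.3 and 2159.8 under entinostat (−0.65 ± 0.17, adjusted p = 0.00504). Hdac3 read 2662, 2452, 2184 and 2321 against 1258, 1515, 1754, 2078 and 1367 (−0.61 ± 0.27, adjusted p = 0.0631). Hdac2 passed narrowly (−0.82 ± 0.33, adjusted p = 0.047) and lost its call without any 1 of 8 of the 9 tumours (adjusted p between 0.0555 and 0.103; with baseline tumour 416 left out it was 0.0421). Outside class I, Hdac9 read 19.7, 17.6, 12.2 and 3.66 against 102, 198, 122, 63.2 and 123 (3.21 ± 0.76, adjusted p = 0.00251). Hdac5 rose (0.91 ± 0.30, adjusted p = 0.0193) and Hdac6, a cytoplasmic deacetylase, fell (−0.92 ± 0.21, adjusted p = 0.00187). In all 2 of 11 deacetylase genes rose and 3 fell, 5 under quantile scaling and in a fit of the 9 libraries alone. These counts stand beside 29.1% higher and 25.3% lower over all genes tested and do not set the list apart.

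Of 24 corepressor genes 11 fell and 1 rose, and 6 fell without the muscle-rich tumours. Rcor2, a CoREST subunit, read 705, 489, 706 and 417 against 83.9, 112, 73.2, 92.7 and 42.3 (−2.86 ± 0.33, adjusted p = 6.97e-06). The NuRD subunits Mta2, Mta1 and Gatad2a fell by less (−1.13, −0.999 and −0.711). Among methylation genes 8 of 20 fell and 2 rose. Hells, a remodeller of dividing cells, read 1909, 1552, 1959 and 1232 against 239, 219, 148, 102 and 228 (−3.19 ± 0.23, adjusted p = 1.30e-07). Uhrf1, the partner of maintenance methylation, read 2820.4, 1615, 2143 and 1966 against 277, 347, 341, 279.8 and 400.6 (−2.68 ± 0.25, adjusted p = 1.08e-06). Neither overlapped between groups. The polycomb subunit Suz12 read 2489, 2154, 2637 and 2354 against 1010.5, 1278, 902, 569 and 1280 (−1.31 ± 0.24, adjusted p = 3.41e-04). Dnmt3a, a de novo DNA methyltransferase, rose from 820.4, 564, 805 and 430.2 to 16825, 7230.5, 1492, 7120.3 and 18978 (3.57 ± 0.55, adjusted p = 1.03e-04), and entinostat tumour 418 was again the lowest of the 5.

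The list of CDK inhibitors and genes reported to respond to HDAC inhibitors had members that rose and members that fell. Cdkn1a, p21 (chr17:29090979-29100722), read 3858, 1614, 6304 and 6184 at baseline and 4164, 3868, 3979, 4319.8 and 2803 under entinostat (−0.06 ± 0.42, adjusted p = 0.912), and the baseline values spanned the entinostat values. H1f0, a linker histone, fell from 10980, 8528, 9418 and 9305 to 3180.2, 4281, 3811, 3101 and 3403 (−1.43 ± 0.18, adjusted p = 1.44e-05). Cdkn2a, which encodes p16 and p19, fell from 1052, 2242, 983 and 1696 to 147, 276, 160.4, 364 and 40.1 (−3.15 ± 0.54, adjusted p = 2.18e-04). Others of the list rose. Cdkn1c, p57, rose from 19.9, 93.9, 42.0 and 21.4 to 876, 665, 1245, 1117 and 577 (4.53 ± 0.49, adjusted p = 3.87e-06). Gsn, gelsolin of the actin skeleton, rose from 4964, 6478, 3414 and 4413 to 29989, 33199, 37974, 40365 and 23174 (2.78 ± 0.36, adjusted p = 2.45e-05). The list held 4 members that rose and 3 that fell of 15, beside 29.1% higher and 25.3% lower over all genes tested.

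Neuronal genes, many under the repressor REST that recruits HDACs, were low. Of 19 listed, 11 passed the filter and 9 of these rose; with no filter 12 of 19 rose, and without the muscle-rich tumours 4 of 8. Scg3 and Gap43 reached 10 in no baseline tumour but in at least 4 entinostat tumours, so such members passed the filter because they were high there, and the share that rose is no support for the list. Syp, synaptophysin, read 15.7, 9.31, 7.37 and 6.30 against 111, 87.1, 153, 162 and 81.5 (3.51 ± 0.45, adjusted p = 1.87e-05). Scg3 read 1.88, 1.35, 0 and 0 against 53.5, 44.4, 128, 97.3 and 9.63 (4.97 ± 1.10, adjusted p = 0.00158). Gap43 read 0, 3.31, 0 and 1.501 against 15.2, 11.1, 17.98, 39.5 and 13.7 (3.36 ± 0.64, adjusted p = 5.53e-04). Tumours 419 and 426 were at or near 0 at baseline for Scg3 and Gap43. Uchl1, a ubiquitin hydrolase of neurons, read 44.4, 42.4, 91.2 and 16.7 against 1151, 245, 392, 1659 and 515 (3.88 ± 0.83, adjusted p = 0.0012). None of the 4 overlapped between groups. Schwann and nerve genes moved beside them, with 8 of 13 higher, 7 of 11 with the filter at 50 and 9 of 15 with no filter. Here too a member, S100b, reached 10 in no baseline tumour but in every entinostat tumour, so this share is likewise no support for the list. S100b, a glial calcium-binding protein, read 2.82, 4.74, 0 and 1.84 against 48.8, 94.8, 151, 87.6 and 60.2 (4.88 ± 0.70, adjusted p = 5.14e-05). Pmp22, a myelin protein also made by fibroblasts, read 463, 388, 216 and 258 against 5448, 4679, 6207, 7869 and 4065 (4.12 ± 0.60, adjusted p = 5.75e-05), and Ngfr, shared with basal epithelium, fell (−2.56 ± 0.54, adjusted p = 0.00107). The summed signal of the nerve list was 2344 to 2956 at baseline and 11350 to 17460 under entinostat, and Sox10, the defining Schwann cell factor, was at 0 in the baseline tumours and read 1.16, 18.004, 132, 4.87 and 7.22 under entinostat. The part of nerve tissue in the neuronal values was not tested. Of 15 germline genes 3 could be tested (with no filter 3 of 11 rose), and 1, Sycp3 of meiotic chromosomes, rose (1.93 ± 0.60, adjusted p = 0.0131), with no call under quantile or cyclic loess scaling (adjusted p = 0.0905 and 0.353) or without the muscle-rich tumours (0.107).

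Among genes of cell death and stress, p53 targets and the BCL2 family held members that rose and members that fell. Over all genes tested 29.1% rose and 25.3% fell, so these counts do not set the lists apart. Of 16 p53 targets 4 rose and 2 fell, with 2 and 2 without the muscle-rich tumours. Sesn1, a sestrin, rose from 506, 367, 371 and 529 to 1547, 1858, 1633, 1308 and 1430 (1.82 ± 0.18, adjusted p = 1.59e-06). Bax, a pore-forming death protein, rose from 1374, 1107, 1014 and 705 to 2254, 2103, 2119, 4178 and 1753 (1.21 ± 0.26, adjusted p = 0.00139). Phlda3, an AKT inhibitor, fell from 5836, 6035, 5101 and 5445 to 1275, 1518, 1925, 2973 and 1002 (−1.79 ± 0.36, adjusted p = 7.86e-04). In the BCL2 and caspase list 7 of 21 rose and 5 fell, with 4 and 3 without the muscle-rich tumours. Mcl1, a survival gene, rose from 4382, 5253, 4429 and 6207 to 19953, 17491, 13602, 19354 and 19313 (1.83 ± 0.16, adjusted p = 6.11e-07). Bcl2a1b (3.63) and Bcl2a1d (3.25), near-identical survival genes of leukocytes whose reads may be split, rose. Bok, a BAX-like protein, fell from 3330.3, 2888, 2906 and 1385 to 339, 360.2, 427, 603 and 378 (−2.59 ± 0.31, adjusted p = 9.65e-06).

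Immediate early genes, which respond within minutes to growth signals and to handling, fell in 8 of 16 cases. Fosl1 read 841, 436, 1053 and 441 against 124, 93.6, 55.4, 165 and 59.0 (−2.80 ± 0.37, adjusted p = 2.50e-05). Egr1 read 1262, 1234, 1520.4 and 2114 against 440.5, 511, 309, 434 and 509.6 (−1.78 ± 0.27, adjusted p = 8.40e-05). Ier2 read 2543, 1542, 2906 and 2075 against 540.5, 565, 543, 1103 and 488 (−1.84 ± 0.30, adjusted p = 1.48e-04). Fos and Jun overlapped between groups (0.30 ± 0.43, adjusted p = 0.574, and 0.41 ± 0.24, adjusted p = 0.15). Atf3, a stress factor, was the 1 that rose, from 310.1, 319.7, 635 and 218 to 8228, 3903, 1406, 6591 and 7093 (3.75 ± 0.49, adjusted p = 2.62e-05).

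Genes of fat, muscle and blood varied between libraries. Of 16 adipocyte genes 10 rose and 1 fell. Lpl, lipoprotein lipase of fat cells and macrophages, read 444, 206, 575 and 134 against 60791, 22832, 14147, 52774 and 43049 (6.86 ± 0.89, adjusted p = 2.21e-05). Fabp4 read 1548, 294, 682 and 212 against 9749, 11151, 23378, 13182 and 13075 (4.73 ± 0.85, adjusted p = 3.51e-04). Pnpla2, a triglyceride lipase, read 554, 828, 515 and 571 against 2070.2, 1903, 2811, 2120.3 and 1606 (1.77 ± 0.34, adjusted p = 5.24e-04). Genes more restricted to fat cells depended on single tumours. Adipoq, adiponectin, read 115, 1.23, 0 and 2.51 at baseline and 28.9, 601, 2003, 36.9 and 512 under entinostat, with tumour 418 highest, and its adjusted p of 0.0197 rose to 0.0512 without baseline tumour 416, 0.0504 without entinostat tumour 418 and 0.0674 without baseline tumour 419. Skeletal muscle genes rose in 7 of 20 cases, but the count ran from 2 to 15 as single tumours were left out (15 without baseline tumour 415, 14 without entinostat tumour 418, 4 without entinostat tumour 413, 3 without entinostat tumour 423 and 2 without baseline tumour 416, 419 or 426), and was 3 in a fit of the 9 libraries alone and 4 with cyclic loess scaling or no filter. Pvalb, parvalbumin of fast fibres, read 286, 0, 1.88 and 0 against 115, 51285, 4.24, 139 and 1809. None of 5 red cell genes passed, but 1 did without entinostat tumour 413 and 5 of 5 rose in a fit of the 9 libraries alone; Hbb-bs, a beta globin, read 2648, 2086, 739 and 329.9 against 2885, 1986, 7768, 6508 and 12885 (2.26 ± 1.09, adjusted p = 0.0898).

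The genes with the highest log2 fold changes, at a mean of at least 50 and no overlap between groups, came from stroma, lipid handling and other groups. Cd36, a receptor for fatty acids and oxidised lipoproteins, read 462, 107, 334 and 55.7 at baseline and 76441, 64218, 11725, 40837 and 85659 under entinostat (8.03 ± 0.95, adjusted p = 9.65e-06). Gdf10, a BMP-family ligand, read 33.8, 5.42, 0 and 0 against 318, 347, 1541, 448 and 1272 (7.34 ± 1.54, adjusted p = 0.0011). Baseline tumour 426 held the lowest value of both, at 0 together with tumour 419 for Gdf10. Mamdc2, a matrix protein, read 49.7, 36.6, 35.7 and 10.1 against 10985, 2802, 3285, 4091 and 3708 (7.19 ± 0.83, adjusted p = 7.44e-06). Scara5, a ferritin receptor of stromal cells, read 7.49, 60.2, 1.88 and 1.83 against 1352, 942, 1618, 1553 and 417 (7.04 ± 1.19, adjusted p = 2.05e-04). Egfl6 read 2.81, 2.71, 3.75 and 0 against 307.7, 689, 533, 279 and 194 (6.98 ± 1.05, adjusted p = 8.21e-05). Mamdc2, Scara5 and Egfl6 were likewise lowest in baseline tumour 426. Scube3, a secreted EGF-domain protein, read 15.1, 4.50, 18.7 and 1.44 against 1547, 1801, 303.03, 631 and 1923 (6.96 ± 0.71, adjusted p = 2.38e-06). Npy, neuropeptide Y, read 30.4, 0.681, 36.6 and 1.86 against 3930.1, 1748, 165, 4431 and 2326 (7.56 ± 1.04, adjusted p = 3.72e-05). Entinostat tumour 418 was the lowest of the 5 for Cd36, Npy and Scube3. Mup11, a major urinary protein with near-identical copies, read 89.2, 0, 0 and 0 against 103, 414.3, 4516, 157 and 386 (7.06 ± 1.93, adjusted p = 0.00624). Mmp8, given above, was also among them.

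At the other end stood keratins and squamous genes. Krt6b, a keratin of activated epidermis, read 22153, 852, 106188 and 34666 against 2.32, 95.9, 0, 16.2 and 7.22 (−10.89 ± 1.90, adjusted p = 2.72e-04). Krt13, a keratin of stratified mucosa, read 23674, 13082, 116256 and 155429.8 against 9.99, 298, 8.14, 33.5 and 24.2 (−10.64 ± 1.15, adjusted p = 4.44e-06). Krt4, its partner, read 6528, 5992, 36227 and 86411 against 17.4, 21.6, 10.7, 9.73 and 3.61 (−10.62 ± 0.98, adjusted p = 9.03e-07). Each varied by over an order of magnitude between baseline tumours, and none overlapped between groups. Dsc3, a desmosomal cadherin, read 9375, 1482, 14576 and 9736 against 0, 2.40, 2.14, 3.24 and 12.0 (−10.86 ± 1.10, adjusted p = 2.36e-06). The airway-type protease Tmprss11b read 3904, 1531, 12810.2 and 14043 against 0, 19.2, 0, 4.86 and 4.81 (−10.60 ± 1.06, adjusted p = 2.04e-06). Sprr1b (−10.76), Sprr2a3 (−10.80), Krt14 (−10.71), Krt16 (−10.59) and Fgfbp1 (−11.21) were the others. Baseline tumour 416 held the lowest baseline value of Krt6b, Dsc3, Krt13, Krt4, Tmprss11b and Krt16.

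Against the other B6 control, the 6 vehicle tumours, 56.0% of genes passed. This comparison shares the 5 entinostat libraries, so its values are given only side by side: the list medians against baseline and against vehicle were −8.92 and −8.31 for basal genes, 3.65 and 4.16 for macrophage genes, −2.59 and −2.36 for mitosis genes, −2.51 and −2.32 for cholesterol synthesis, −1.71 and −1.51 for type I interferon genes and 1.15 and 1.94 for T cell genes. Between vehicle and baseline no gene passed the limma test, with 749 genes at an unadjusted p under 0.05.

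Whether the change depended on the host was tested as the difference between the change in B6 mice and the change in NSG mice, in 1 limma fit of the 30 libraries. In NSG mice 77 of 18657 genes passed between entinostat and baseline (0.413%, 43 higher and 34 lower), with 3495 at an unadjusted p under 0.05. The median absolute log2 fold change in NSG mice was 0.345 over these 18657 genes. In B6 mice it was 0.912, but over the 17053 genes of the B6 fit, a different set. The host difference passed for 8633 genes (46.3%), 4686 with a higher and 3947 with a lower change in B6 mice. The hosts differ in more than lymphocytes, since NSG mice are of another strain, and dose and tumour volumes are not stated for them in the sources used here.

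The lowest median host differences belonged to the basal and cornified lists. Of 22 basal genes 20 had a lower change in B6 mice, and the median change in NSG mice was −0.999. Of 22 cornified genes only 12 had a lower change in B6 mice. Their median change in NSG mice was −1.95, although none passed there. All 25 adhesion genes had a lower change, with a median difference of −4.81. Cdh1 changed by −4.01 in B6 mice and by 0.07 in NSG mice (difference −4.08 ± 0.31, adjusted p = 1.27e-10). The host difference was lowest among the genes of the rule for Chil4, a chitinase-like protein (−10.23, adjusted p = 0.00942), Krt15 (−9.90, adjusted p = 5.93e-08), Fgfbp1 (−9.79), Stfa3 (−9.59) and Gsta1 (−9.32). The highest differences belonged to genes of urinary proteins, fat and muscle: Mup10 (12.62), Pvalb (10.42), Car3 (10.02), Mup18 (9.89) and Mup11 (9.18), of which Pvalb is a gene of the muscle-rich tumours. Pvalb changed by 6.147 in B6 mice and by −4.269 in NSG mice, and Mup11 by 7.064 and −2.115. The differences of Pvalb and Mup11 thus joined a rise in B6 mice with a negative change in NSG mice. The skeletal muscle list had a median of 4.349 in B6 mice and −2.299 in NSG mice, where none of its members passed. Within B6 mice Mup18 lost its call when any 1 of 6 tumours was left out, and Mup10 when any 1 of 3 was.

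Mitosis genes all had a lower change in B6 mice (28 of 28, NSG median −0.28); Cdc20 changed by −3.46 in B6 mice and by −0.18 in NSG mice (difference −3.28 ± 0.23, adjusted p = 3.84e-11). Among cholesterol synthesis genes 21 of 24 had a lower change in B6 mice, and Idi1 changed by −0.17 in NSG mice (difference −4.03 ± 0.44, adjusted p = 7.73e-08). For 20 of 20 macrophage genes the change was higher in B6 mice (NSG median −0.25), and Cd68 changed by 0.42 in NSG mice (difference 3.72 ± 0.45, adjusted p = 2.97e-07). Collagens had a higher change in B6 mice in 18 of 20 cases, and type I interferon genes a lower change in 20 of 27. Hdac1 also had a lower change in B6 mice (difference −0.89 ± 0.20, adjusted p = 6.47e-04).

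**Figure D4:**
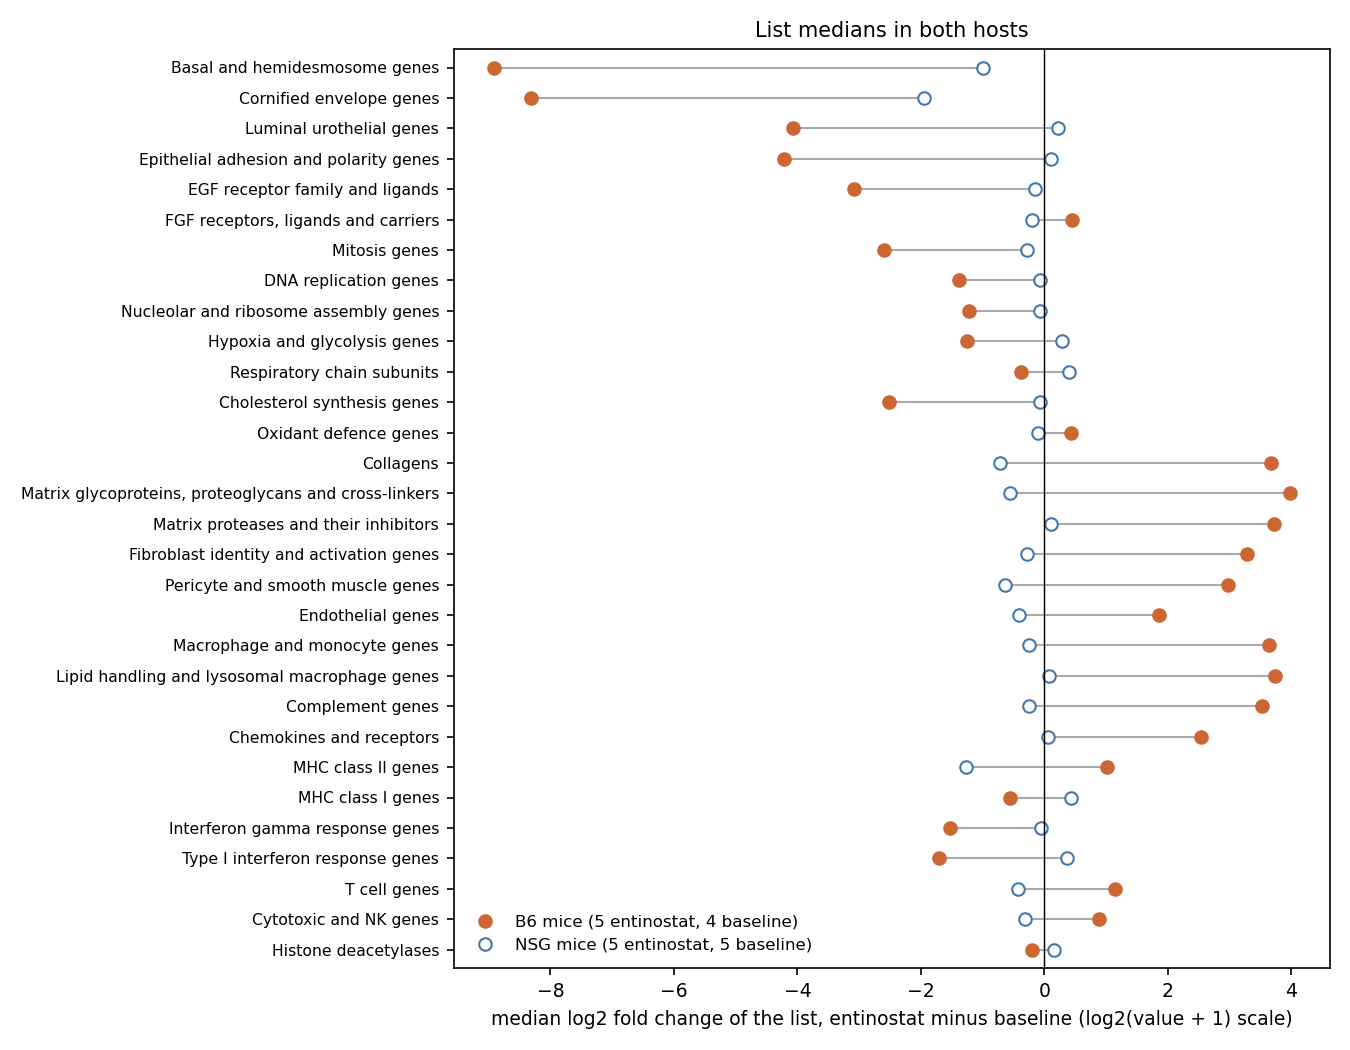
Median log2 fold change of 30 gene lists (entinostat minus baseline, log2(value + 1) scale) in B6 mice (filled points) and in NSG mice (open points), joined by a line per list. Basal genes lie at −8.92 in B6 mice and −0.999 in NSG mice, and macrophage genes at 3.65 and −0.25.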

How the data were processed

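RNA of subcutaneous BBN963 tumours was sequenced from libraries of a stranded mRNA kit, per the labels' protocols. The values are normalised signal per gene as deposited by the authors; the submitters' processing notes name STAR, DESeq2 and the build mm10, with no versions and no roles, and also BWA and Picard. The counting tool, its strand setting and the annotation are not given in the sources used here, so overlapping and antisense genes and near-identical copies are uncertain. The deposited values are not whole reads, so no count model was used.

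Values were transformed as log2(value + 1). Genes that reached 10 in 4 or more libraries were tested with limma 3.58.1 (R 4.3.3; trend, robust) over all 15 B6 libraries, and the host difference over all 30 RNA libraries, with Benjamini-Hochberg adjustment over all genes tested. Figures used Python 3.11.15 and matplotlib 3.10.9. The replicates are tumours of separate numbers; nothing says more of their independence, so p-values measure only the spread between these samples. No 2 libraries were identical. On simulated data for the B6 comparison (17053 genes), the test recovered 67.5% of 83 genes altered 4-fold but 21.2% of 52 altered 2-fold. Far fewer genes were altered there than the 9284 that passed in the data. The limit set by the adjustment depends on that number, so these shares do not give the recovery in the data.

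Genes were named by rule: the 10 highest and 10 lowest changes without overlap, per list, the members with the smallest p (4 at most), a set of standard markers, the 5 genes with most signal per group and the 5 highest and 5 lowest host differences. Some genes that the rule picks are not reported here. Other genes named were chosen after their values were seen. The members and lists were chosen with earlier results of these data known. Positions are gene bounds from RefSeq (GRCm38) and promoters from RefSeq (GRCm38.p6). Alternatives were other pseudocounts, filters, scalings and limma settings, fits of fewer groups and fits without single tumours.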

Additional observations from a re-analysis of the deposited data

Results flagged for a closer look

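For each gene with values in the text, the highest or lowest tumour of a group was compared with the rest by Dixon's ratio, the gap to the nearest tumour divided by the range of the group. Of 394 groups tested 40 (10.2%) exceeded the critical value at the 95% level, and chance flags about 1 in 20.

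Baseline tumour 426 stood apart as the lowest tumour for 13 genes. For myeloid and lymphocyte genes the ratios were 0.875 for C1qb, 0.86 for C1qc, 0.908 for Cd4, 0.831 for Cd80, 0.86 for Cd86 and 0.978 for Entpd1. For Lgmn and Plin2, of lysosome and lipid droplets, they were 0.852 and 0.833. For stromal genes they were 0.915 (Pdpn), 0.863 (Tnn), 0.856 (Lmod1) and 0.841 (Egfl6), and for Bok 0.837. The same tumour was the highest for Egfr (0.841). Baseline tumour 416 was the lowest for the epithelial genes Krt5 (0.889), Fgfbp1 (0.882) and Gpx2 (0.84), and the highest for Camp (1.0, the other baseline tumours being at 0). Its Camp value was that of about 1 read. Baseline tumour 419 was the highest for Prf1 (0.861), and baseline tumour 415 for Mup11 (1.0).

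Entinostat tumour 418 was the lowest of its group for Ctss (0.78), Igf1 (0.858), Npy (0.717), Plin2 (0.81) and Prdx1 (0.818), and the highest for Erbb2 (0.899), Igtp (0.772), Irgm1 (0.712), Pecam1 (0.896) and Tap1 (0.766). Its library also had the fewest estimated reads of the group, and the part of depth in these values was not tested. Entinostat tumour 421 was the highest for Bax (0.711) and Ier2 (0.819) and the lowest for Klf5 (0.754) and Mybl2 (0.751). Entinostat tumour 423 was the highest for Ctla4 (0.768) and Rptn (1.0) and the lowest for Cdkn1a (0.745). Its Rptn value was that of about 1 read, with the rest of the group at 0. Entinostat tumour 411 was the lowest for Cd86 (0.778) and the highest for Mamdc2 (0.723), and entinostat tumour 413 was the highest for Grhl3 (0.768).

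The change under entinostat differed between B6 and NSG mice, by a limma test of the difference itself, for 8633 genes. Among the genes named, the differences (B6 change minus NSG change, log2 scale) were 12.62 for Mup10, 10.42 for Pvalb, 10.02 for Car3, 9.88 for Mup18, 9.18 for Mup11 and 3.72 for Cd68. They were −10.23 for Chil4, −9.90 for Krt15, −9.79 for Fgfbp1, −9.59 for Stfa3, −9.32 for Gsta1, −4.08 for Cdh1, −4.03 for Idi1, −3.29 for Cdc20 and −0.89 for Hdac1.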

How the results depend on the processing

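The count of genes that passed was 8107 to 9739 over other pseudocounts, filters, scalings and fits (9284 as reported), 8131 to 8936 without single tumours and 6737 without the muscle-rich tumours, an alternative chosen after seeing the data. Quantile scaling moved the median of all genes from 0.01 to −0.13 and gave 4554 higher and 5073 lower genes. Cyclic loess scaling gave 4469 and 4785. The host difference passed for 7654 to 9237 genes. Of 288 named genes that passed, 258 kept the call in every alternative run; 18 lost it without the muscle-rich tumours and 16 without baseline tumour 426. Of 39 that did not pass, 11 passed in some alternative. The 15 named host differences kept their call in the alternatives run for them. Those left out single B6 tumours but no NSG tumour. The fit without the muscle-rich tumours was not run for the host difference, which bears on Pvalb. Values that changed sign all belonged to genes that did not pass, and the cause was not tested. Under quantile scaling these were B2m (−0.42), Cd74 (−0.025), Ebp (−0.032), H2-D1 (−0.29) and Prf1 (−0.24). Under cyclic loess scaling they were Cdkn1a (0.039), Fdft1 (0.077) and Prf1 (−0.31). Without the muscle-rich tumours they were Arg1 (−0.41), Cd8a (−0.18), Cdkn1a (0.062), Col7a1 (0.53), Fdft1 (0.027), Fos (−0.09), Nos2 (−0.24) and Prf1 (−0.34). Without single tumours, the lowest and highest values of the genes whose sign changed were −0.28 and 0.79 for Arg1, −0.16 and 0.35 for Cd8a, −0.49 and 0.16 for Cdkn1a, −0.27 and 0.24 for Col7a1, −0.16 and 0.17 for Ebp, −1.16 and 0.17 for Fabp5, −0.19 and 0.10 for Fdft1, −0.047 and 0.61 for Fos, −0.36 and 0.004 for Gzmb, −0.21 and 0.64 for Nos2, −0.084 and 0.50 for Prf1 and −0.29 and 0.031 for Tnf. No paired analysis was possible because entinostat and baseline tumours came from different mice and share no tumour number. Low-value genes near 1 read per library limit what could be tested.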

Other observations

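The whole keratin family, 54 genes, took 2.77%, 1.17%, 4.96% and 4.34% of the summed signal in baseline tumours 415, 416, 419 and 426. In entinostat tumours 411, 413, 418, 421 and 423 it took 0.00515%, 0.0106%, 0.0194%, 0.00533% and 0.00223%. Entinostat tumour 418, which had the most keratin signal of its group, also had the lowest share of the macrophage lists in that group.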
